A study of Mus musculus with 30 samples.

Results

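The cells described here are mouse secondary iPSCs that spent 48 or 96 h in differentiation medium before 48 h in serum/LIF without dox (-dox), the drug that induces their reprogramming transgenes. They are 4 of the 30 RNA-seq samples of the series, with 2 samples per condition, and form 2 of its 15 conditions. The members were chosen by their labels, and the comparison is of cells differentiated for 96 h with cells differentiated for 48 h, over the 12909 of 22477 genes that reached 1 FPKM (fragments per kilobase of transcript, scaled to the size of the library) in either condition. All cells of the series are from the same line, in which GFP is targeted to the endogenous Nanog locus, a nuclear RFP is expressed constitutively, and Oct4, Sox2, Klf4 and cMyc (OSKM) are induced by dox. They were maintained on feeders of mouse embryonic fibroblasts (MEFs) in serum/LIF, moved to 2i/LIF, and differentiated in N2B27 medium. The labels and methods do not say on what surface the RNA-seq cells grew after re-seeding, and the study calls its replicates biological without saying whether those of the RNA-seq came from separate cultures. A further 2 contrasts are used for reference, 96 against 48 h of the time course before any re-seeding and 96 against 48 h in cells re-seeded with dox (+dox).

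Pluripotent mouse cells are held in the naive state by a network around Oct4, Sox2 and Nanog, which LIF sustains through Stat3 and which 2i protects by inhibiting Mek and Gsk3. When the inhibitors are withdrawn, the naive factors fall, a formative state marked by Fgf5 and Otx2 follows, and Nodal and FGF signals guide the choice of lineage. Re-seeding in serum/LIF returns the cells to LIF and to the BMP-like activity of serum, so the comparison shows which genes such cells express when they had 48 h more of differentiation behind them.

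The deposited table holds 1 value per gene and condition, in which the authors combined both replicates. No difference given here therefore has an SD, a test or a p-value, and a gene is called higher or lower when its plain ratio is at least 2. Depth could be judged only roughly, from how the lowest values of single-transcript genes are spaced. A transcript of 2 kb at 1 FPKM stood at 29.5 units of this spacing in the 48 h -dox cells and at 33.0 in the 96 h -dox cells. These units are not read counts. All values of the 48 h -dox cells summed to 780060 FPKM and those of the 96 h -dox cells to 675000, and the median log2 ratio over the genes tested was 0.0016, so that the values were compared as deposited.

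In the cells differentiated for 96 h, 1588 genes were at least 2-fold higher than in those differentiated for 48 h, which is 12.3% of the genes tested. Another 1283 genes, or 9.94%, were at least 2-fold lower. These shares are the background for each count of list members below. Genes of pluripotency, of Nodal signaling and of FGF signaling were among the lower ones, and trophoblast regulators, keratins, collagens and genes of the H19 and Igf2 region were among the higher ones. The share of genes past 2-fold depended on the level. It was 45.8% of the 1275 genes whose higher value lay between 1 and 2 FPKM, and 13.6% of the 2420 genes at 50 FPKM or more. Changes of 10-fold or more among genes that reached 10 FPKM were found in 66 genes that rose and 37 that fell. The gene just inside the limit of 1 FPKM was Il18bp, at 1.0005 FPKM in its higher condition, and the one just outside was Mfsd6, at 0.9992 FPKM.

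**Figure D1:**
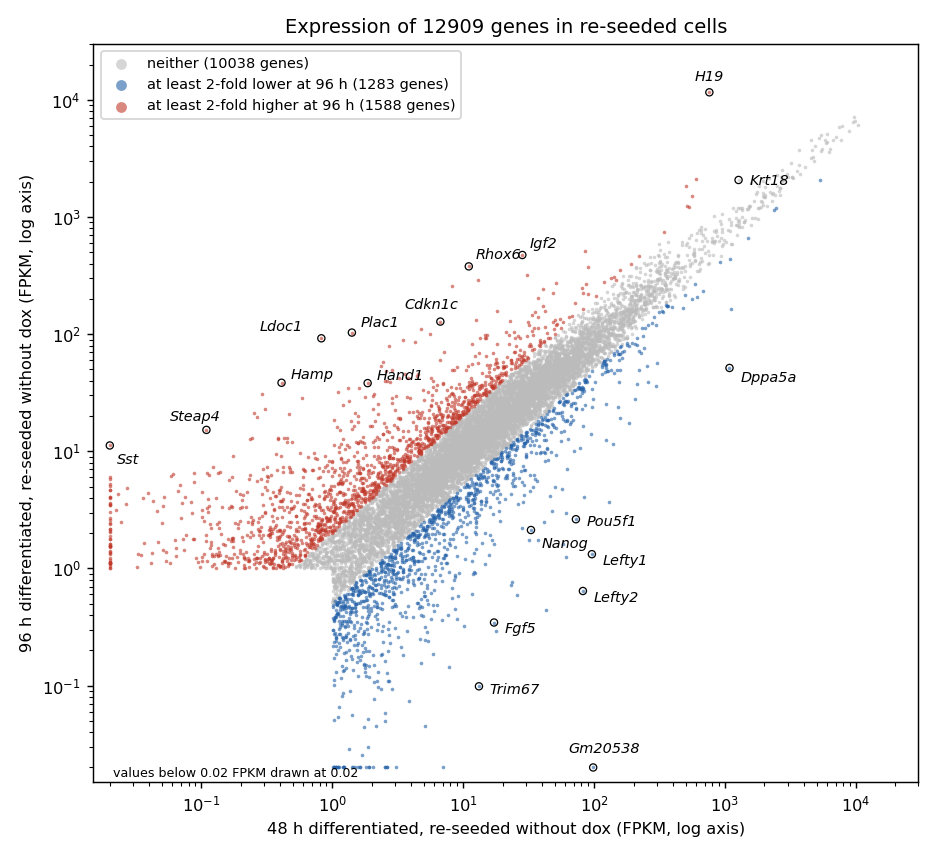
FPKM of each of the 12909 genes in cells differentiated for 48 h (x axis, log scale) and for 96 h (y axis, log scale) before 48 h in serum/LIF without dox. Each point is a gene with 1 combined value per condition, red where at least 2-fold higher at 96 h (1588 genes), blue where at least 2-fold lower (1283 genes) and gray otherwise (10038 genes). H19 stands apart at the top, and Pou5f1, Nanog, Lefty1 and Lefty2 lie far below the diagonal.

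Of the reprogramming genes, Pou5f1 (Oct4; chr17:35506018-35510772 on mm10) fell most. It was at 72.6 FPKM in the 48 h -dox cells and 2.63 FPKM in the 96 h -dox cells, 27.6-fold lower. Sox2, its binding partner, was at 43.4 and 16.3 FPKM, 2.66-fold lower. Nanog (chr6:122707489-122714633) fell from 32.9 to 2.13 FPKM, 15.5-fold. These 3 genes declined in the order of differentiation time, since cells re-seeded without dox after 0 h had 360 FPKM of Pou5f1, 224 of Sox2 and 120 of Nanog. Klf4 went the other way, from 4.68 to 11.4 FPKM, and was 2.44-fold higher, although far below its 84.8 FPKM in cells re-seeded from 0 h. Myc, at 35.9 and 57.6 FPKM, stayed within 2-fold. The table does not separate transcripts of the endogenous genes from those of the transgenes. In such bulk samples, fewer cells that express a gene and less RNA per cell cannot be told apart.

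Of the 18 naive pluripotency factors tested, 12 were lower, 1 was higher and the median log2 ratio was -1.70. The background shares were those given above, 9.94% lower and 12.3% higher, around a median near 0. Dppa5a, an RNA-binding protein of pluripotent cells, was at 1081 and 51.5 FPKM and so remained well expressed at 96 h. Fgf4, the FGF ligand made by naive cells, was at 9.14 and 0.581 FPKM. Dppa2, a chromatin protein, was at 10.1 and 0.326 FPKM, and its partner Dppa4 was at 70.2 and 9.99 FPKM. Esrrb, an orphan nuclear receptor of the naive network, had already come down to 8.31 FPKM in the 48 h -dox cells, from 151 in those re-seeded from 0 h, and was at 1.98 FPKM at 96 h. Klf2, Klf5, Tfcp2l1, Tbx3 and Nr5a2 differed by less than 2-fold between 48 and 96 h.

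Among the 11 core pluripotency factors tested, which are expressed in both the naive and the primed state, 8 were lower, 1 was higher and the median log2 ratio was -2.10. Tdgf1, the Nodal co-receptor Cripto, was at 130 and 3.72 FPKM. L1td1, an RNA-binding protein, was at 184 and 17.5 FPKM. Sall4 was at 97.1 and 59.9 FPKM and Trim71 at 43.4 and 31.4 FPKM, so that not every factor of this list crossed 2-fold. Lin28b, an RNA-binding protein that blocks let-7 maturation, was the member that rose, from 7.58 to 15.9 FPKM, whereas Lin28a fell from 155 to 67.9 FPKM.

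The genes of the formative state, 12 of which were tested, were lower in 7 cases and higher in 1, with a median log2 ratio of -1.66. Over the 9 genes with 1 FPKM in both values the median was -0.093. Fgf5, its classical marker, was at 17.2 FPKM in the 48 h -dox cells and 0.346 FPKM in the 96 h -dox cells. The 48 h value was above those of cells re-seeded from 0 h (0.287 FPKM) and 24 h (3.59 FPKM), so that Fgf5 was higher in this condition than in the other 3 -dox conditions. Sox3 was also highest after 48 h, with 2.57, 7.02, 10.5 and 1.86 FPKM after 0, 24, 48 and 96 h. Pou3f1, a POU factor of the epiblast, was at 23.9 and 5.64 FPKM. Otx2, at 13.1 and 16.1 FPKM, and Dnmt3a, at 31.8 and 40.8 FPKM, did not cross 2-fold.

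Of the 9 DNA methylation enzymes, Dnmt3l, the cofactor of the de novo enzymes, fell from 62.5 to 7.09 FPKM. Dnmt3b fell from 98.5 to 27.9 FPKM and the oxidase Tet1 from 9.51 to 2.58 FPKM. Tet3 was the only enzyme of this list at least 2-fold higher, at 3.84 and 8.61 FPKM. The germline genes, 10 of which were tested, were lower in 8 cases and higher in none, with a median log2 ratio of -1.54 (-0.93 with 1 FPKM added), but only Sycp3 and Tex19.1 reached 10 FPKM. None of the 9 two-cell-like genes found in the table reached 1 FPKM in either condition.

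Nodal and its inhibitors were lower by some of the widest margins of the table. Lefty1, a secreted inhibitor of Nodal, was at 96.2 and 1.32 FPKM, 72.6-fold lower. Lefty2 was at 82.1 and 0.642 FPKM, 128-fold lower. Both genes lie next to each other on chromosome 1 and are close copies, so reads may have been divided between them. The ligand Nodal was at 61.5 and 3.0025 FPKM, and the related ligand Gdf3 at 26.0 and 0.591 FPKM. Foxh1, the DNA-binding partner of the Smads that Nodal activates, was at 31.8 and 1.76 FPKM. The co-receptor Tdgf1 fell with them, as given above, whereas the receptors Acvr2a and Acvr2b did not. Acvr2a, at 5.61 and 8.56 FPKM, and Acvr2b, at 9.77 and 11.5 FPKM, stayed within 2-fold, and the TGF-beta genes Tgfb2 (3.30 and 19.13 FPKM), Tgfbr2 (1.72 and 5.32 FPKM) and Tgfbi (1.09 and 16.1 FPKM) were higher. Over the list of 17 genes tested, 6 were lower and 4 were higher, and the median log2 ratio was 0.23. This median turned to -0.68 over the 11 genes that reached 10 FPKM.

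Ligands and feedback genes of the FGF pathway were lower as a group. Of 17 tested, 12 were lower and 1 was higher, with a median log2 ratio of -1.69. The ETS factors Etv4 and Etv5, which ERK signaling induces, were at 10.2 and 1.21 FPKM and at 57.2 and 4.73 FPKM. The inhibitors of the pathway Spry4 (6.95 and 0.361 FPKM), Dusp4 (32.6 and 4.63 FPKM) and Dusp6 (46.9 and 14.5 FPKM) also fell. The receptor Fgfr1 was at 43.2 and 41.6 FPKM, and Fgfr2, at 30.3 and 60.8 FPKM, was the 1 gene of the list that reached a 2-fold rise.

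**Figure D2:**
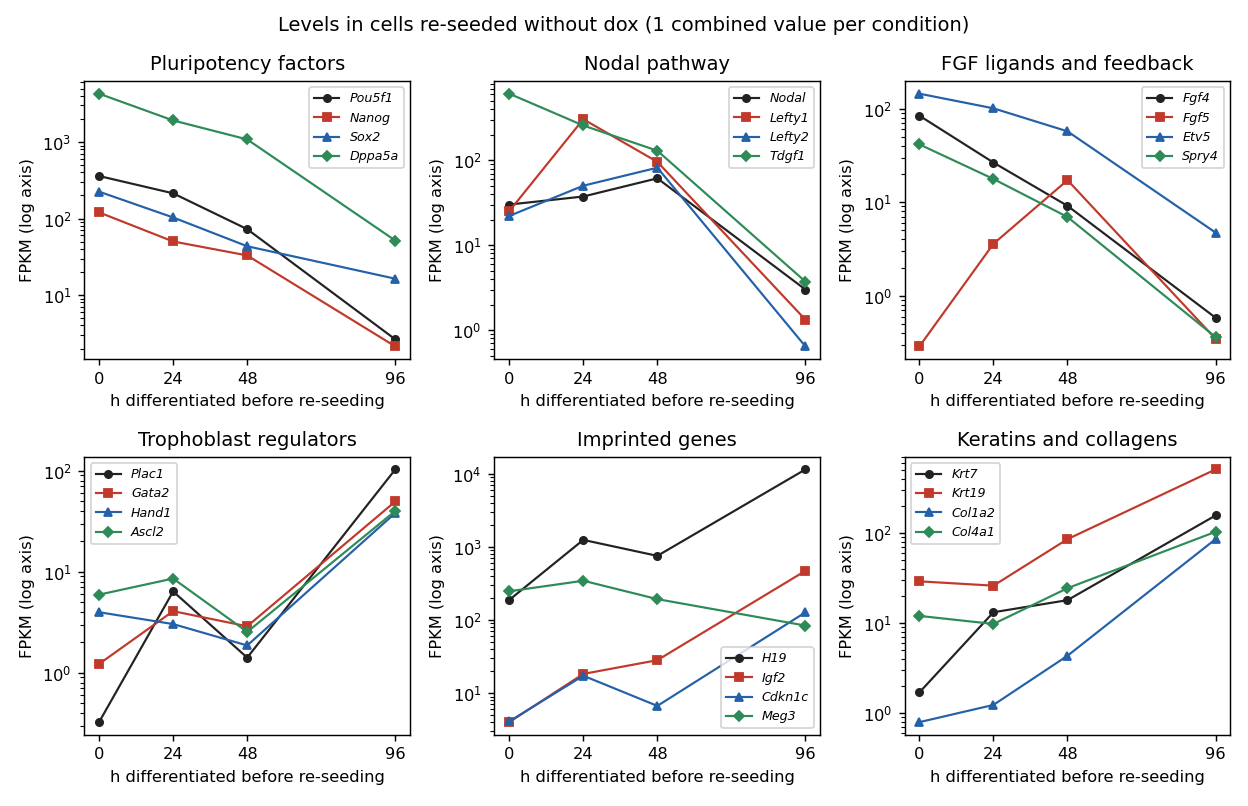
FPKM (y axis, log scale) of 24 genes in the 4 conditions re-seeded without dox, against the h of differentiation before re-seeding (x axis), with 1 combined value per point and lines that only join the points. Pou5f1, Nanog and Sox2 declined over the 4 conditions, Nodal, Lefty2 and Fgf5 were highest after 48 h, and the trophoblast regulators and Col1a2 were highest after 96 h.

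A set of primitive streak genes was seen only at low levels and was lower in the 96 h -dox cells. T, or Brachyury, was at 0.191, 0.907, 5.90 and 0.185 FPKM in cells re-seeded from 0, 24, 48 and 96 h. Wnt3 was at 0.0131, 0.922, 3.28 and 0.414 FPKM, and Fgf8 at 0.316, 3.15, 8.99 and 1.27 FPKM. All 3 were highest in the 48 h -dox cells, and their values before re-seeding at 48 h were 0.0653 FPKM for T, 0.328 for Wnt3 and 0.975 for Fgf8. Of the 18 regulators in this list only 6 were tested, of which 4 were lower and 1, Hand1, was higher. Over all genes tested, 9.94% were lower and 12.3% higher. T, Wnt3 and Eomes were below 1 FPKM at 96 h and passed the limit of 1 FPKM only through their 48 h values. The direction of their change was therefore fixed by that limit. The median log2 ratio was -2.90, and -0.93 over the 3 genes with 1 FPKM in both values.

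Regulators of the trophoblast, the lineage that forms the placenta, gave the highest median of the 41 lists that had one, at a log2 ratio of 3.82, with 10 of 11 tested genes higher against a background of 12.3%. With 1 FPKM added to both values the median was 2.71. Plac1, a placental surface protein on the X chromosome, was at 1.41 and 103 FPKM, 73.0-fold higher. Gata2 was at 2.88 and 49.7 FPKM, Hand1 at 1.86 and 38.2 FPKM, Ascl2 at 2.54 and 40.0 FPKM and Esx1 at 2.75 and 38.9 FPKM. Tfap2c, which is expressed in trophoblast and in other cell types, was at 11.7 and 82.5 FPKM. Of the factors that specify trophoblast or its stem cells, Gata3 was at 5.27 and 13.3 FPKM, Cdx2 at 0.124 and 1.27 FPKM and Elf5 at 0.169 and 3.44 FPKM, and Eomes fell from 2.46 to 0.236 FPKM. Tpbpa, a spongiotrophoblast gene, was at 0.347 and 1.12 FPKM. Cdx2, Elf5 and Tpbpa were below 1 FPKM at 48 h and Eomes at 96 h, so the limit of 1 FPKM fixed the direction of their changes. Over the 7 genes of the list with 1 FPKM in both values the median log2 ratio was 3.98. All 10 rising genes of the list were higher in the 96 h -dox cells than in any other of the 15 conditions. In the 96 h cells before re-seeding Plac1 was at 2.84 FPKM, Gata2 at 2.67, Hand1 at 0.590 and Ascl2 at 1.404. In the 96 h +dox cells they were at 5.23, 10.9, 1.76 and 3.22 FPKM.

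The largest ratios among genes that reached 10 FPKM were of placental genes and of genes known from other tissues. Steap4, a metalloreductase, was at 0.109 and 15.2 FPKM. Ldoc1, a retrotransposon-derived X-linked gene, was at 0.826 and 92.2 FPKM. Hamp, which encodes the iron hormone hepcidin and has a close copy, was at 0.410 and 38.5 FPKM. Pparg, a nuclear receptor of fat cells that is also needed in placenta, was at 0.307 and 22.8 FPKM. Igfbp5, an IGF-binding protein, was at 0.267 and 19.5 FPKM, and the homeobox genes Irx4 and Irx3 were at 0.251 and 21.2 FPKM and at 0.464 and 20.96 FPKM. Cdh5, an endothelial cadherin, was at 0.244 and 13.1 FPKM. The X-linked homeobox genes Rhox6 and Rhox9, which are expressed in placenta and germ cells, were at 11.04 and 379 FPKM and at 8.29 and 260 FPKM. The other genes of the 20 with the largest ratios were Gm9112, Serpinb9g, Serpinb9e, Vtcn1, Cmklr1, 1600025M17Rik, Nxf7, C430049B03Rik and Ppbp, with 96 h values between 12.7 and 79.4 FPKM. The 48 h values of 15 of these 20 genes were below 1 FPKM, so that their ratios rest on low values.

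The 250 bases before the start sites of 4 genes are shown because a motif of a GATA factor, such as the rising Gata2, or of the falling Sox2 and Oct4 was found in them. They are from RefSeq promoters of the GRCm38 build (mm10), 5′ to 3′ on the strand of the gene. Plac1 (chrX:53240111-53240360, minus strand), Nxf7, a member of the nuclear RNA export factors (chrX:135598782-135599031, minus strand), and Hamp (chr7:30944030-30944279, minus strand) were among the 20 genes with the largest rise, and capitals mark a match to the GATA motif AGATAAG, here on its other strand. Nanog (chr6:122707239-122707488, plus strand) fell, and capitals mark a match to the composite motif TTGTNATGC that Sox2 and Oct4 bind together, also on its other strand.
Plac1: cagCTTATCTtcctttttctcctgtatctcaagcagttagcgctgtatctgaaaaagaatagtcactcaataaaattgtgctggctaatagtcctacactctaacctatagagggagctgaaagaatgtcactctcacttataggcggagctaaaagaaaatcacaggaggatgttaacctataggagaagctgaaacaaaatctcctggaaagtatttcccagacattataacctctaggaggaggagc
Nxf7: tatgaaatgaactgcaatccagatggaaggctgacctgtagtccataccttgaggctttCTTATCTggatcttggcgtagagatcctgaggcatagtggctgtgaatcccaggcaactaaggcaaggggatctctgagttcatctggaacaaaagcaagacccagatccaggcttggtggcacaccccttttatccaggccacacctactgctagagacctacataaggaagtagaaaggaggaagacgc
Hamp: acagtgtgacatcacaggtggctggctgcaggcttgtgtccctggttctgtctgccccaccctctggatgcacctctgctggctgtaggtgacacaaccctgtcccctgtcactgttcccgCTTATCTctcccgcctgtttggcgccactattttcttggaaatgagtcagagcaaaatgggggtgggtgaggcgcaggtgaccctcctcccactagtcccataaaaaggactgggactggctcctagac
Nanog: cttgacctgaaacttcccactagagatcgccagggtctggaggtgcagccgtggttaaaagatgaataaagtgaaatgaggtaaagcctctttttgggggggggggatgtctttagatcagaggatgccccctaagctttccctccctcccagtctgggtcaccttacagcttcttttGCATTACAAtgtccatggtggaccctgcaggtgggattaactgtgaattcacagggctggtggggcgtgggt

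In all, 15 motifs, chosen after the values had been seen, were searched on both strands in windows from 250 bases before to 50 bases after the start site. They were the octamer ATGCAAAT, the SOX-OCT motif TTGTNATGC, the Foxh1 motif AATNCACA, the Smad motif GTCTAGAC, the STAT motif TTCCNGGAA, the ETS motif CCGGAAGT and the AP-2 motif GCCNNNGGC. The AP-1 motif was TGANTCA and the motif of TEAD factors was CATTCC. For GATA factors AGATAAG was used, and a second form was TGATAAG. The motif of TCF factors was ATCAAAG, the E-box was CATATG, the homeodomain motif was TAATTA and the box bound by the TATA factor was TATAAA. The octamer and the SOX-OCT motif share the letters ATGC. A gene with several windows counted as matched if any of them matched. Of the 20 genes with the largest rise, 16 had a window, and AGATAAG was found in 3 of them. Over all 27025 genes with a window the share was 3.50%. It was found in none of the 10 genes with a window among the 20 with the largest fall. The second GATA form, TGATAAG, was found in none of the 16, none of the 10 and 2.71% of all genes. The AP-1 letters were found in 4 of the 16 (Hamp, Vtcn1, 1600025M17Rik and Ppbp), none of the 10 and 8.97% of all genes. The AP-2 letters were found in 3 of the 16, 4 of the 10 and 18.5% of all genes, Pou5f1 among the 4. The SOX-OCT letters were in 231 of the 27025 genes, or 0.855%, and in none of the 16 or the 10. The match in the Plac1 window begins 247 bases before the start site, that of Nxf7 191, that of Hamp 129 and that of Nanog 72. These matches describe the sequence only.

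Among the 20 genes with the smallest ratios, the Nodal and pluripotency genes named above were joined by others. Trim67, a brain-enriched ubiquitin ligase, was at 13.2 and 0.0986 FPKM. Dok2, an adaptor of tyrosine kinases, was at 42.9 and 0.446 FPKM. Shisa6, which binds glutamate receptors, was at 17.8 and 0.295 FPKM. Pla2g1b, a phospholipase, was at 57.4 and 1.63 FPKM, and Epha2, an ephrin receptor, was at 37.4 and 1.76 FPKM. Trim67 and Shisa6 were at 0.397 and 0.459 FPKM in cells re-seeded from 0 h, so both were high after 48 h but not in the cells closest to the naive state. The rest were 2410007B07Rik, Psors1c2, Ppp4r4, Trim61 and Gm19553, with 48 h values from 11.7 to 83.1 FPKM. Of genes listed at 0 in 1 condition, Sst, the hormone somatostatin, was listed at 0 at 48 h and at 11.2 FPKM at 96 h. Gm20538 was at 98.4 FPKM in the 48 h cells and listed at 0 in the 96 h cells, but it overlaps Ndufb8 on the same strand and was at no more than 0.0334 FPKM in any other condition re-seeded without dox, so its value is uncertain.

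By absolute change, H19 was first. This imprinted noncoding RNA (chr7:142575529-142578143) was at 759 FPKM in the 48 h -dox cells and 11602 FPKM in the 96 h -dox cells, 15.3-fold higher, and was at 491 FPKM in the 96 h cells before re-seeding. Igf2, the growth factor gene beside it (chr7:142650766-142666816), was at 28.3 and 474 FPKM. The 3 further imprinted genes of distal chromosome 7 in the list also rose, namely Cdkn1c, a CDK inhibitor (6.69 and 128 FPKM), Phlda2, a growth restrainer of the placenta (40.5 and 241 FPKM), and Ascl2, given above. Peg10, a retrotransposon-derived placental gene, was at 506 and 1855 FPKM, and Slc38a4, an amino acid transporter, at 40.6 and 173 FPKM. On chromosome 12 the noncoding RNAs Meg3 (194 and 84.2 FPKM), Rian (395 and 170 FPKM) and Mirg (56.0 and 14.7 FPKM) fell, while their neighbor Dlk1, a Notch-like protein, rose from 3.48 to 88.8 FPKM. Of the 22 imprinted genes tested, 11 were higher and 6 were lower, with a median log2 ratio of 0.96. Grb10, an adaptor of growth factor receptors, fell from 19.2 to 2.55 FPKM.

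The other large rises in FPKM were of Tmsb4x, an actin-binding peptide (598 and 2098 FPKM), Mdk, the growth factor midkine (559 and 1525 FPKM), Krt18, Krt8 and Krt19, Lgals1, a lectin (509 and 1237 FPKM), and S100a11 (343 and 742 FPKM). The 10 largest falls included those of Rps27, Rpl41, Ftl1, Rplp1, Rpl38, Mt2, Rps28 and Rps18, and of the 10 only the ferritin gene Ftl1, at 5273 and 2069 FPKM, crossed 2-fold. Of the 80 cytosolic ribosomal protein genes tested, 1, Rpl10l, was lower and none was higher, around a median log2 ratio of -0.51. Proliferation genes had a like median of -0.60, with none of the 20 past 2-fold, for example Mki67 at 45.7 and 35.7 FPKM.

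Epithelial genes remained expressed. Cdh1, the epithelial cadherin, was at 167 and 156 FPKM, and Epcam at 181 and 130 FPKM. Of 20 epithelial genes, 2 were higher, 1 was lower and the median log2 ratio was -0.10. Of the keratins of simple epithelia, 3 were higher. Krt8 was at 527 and 1227 FPKM, Krt19 at 85.9 and 513 FPKM and Krt7 at 18.0 and 158 FPKM, while Krt18, at 1268 and 2071 FPKM, stayed within 2-fold. Of 10 keratin genes tested, 6 were higher and 2, Krt17 and Krt42, were lower. Their median log2 ratio was 1.55, or 0.84 with 1 FPKM added. It was 1.82 over the 6 keratin genes with 1 FPKM in both values.

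Genes linked to mesenchyme rose, while most of the epithelial ones stayed within 2-fold. Of 19 tested, 12 were higher and 2 were lower, with a median log2 ratio of 1.28. Vim, an intermediate filament, was at 135 and 299 FPKM, and the transcription factor Snai1 at 2.84 and 10.8 FPKM. Collagen genes were higher in 12 of 21 cases and lower in 2, with a median of 1.83. Col1a2, a chain of fibrillar collagen, was at 4.32 and 86.0 FPKM, and Col4a1, a chain of basement membranes, at 24.4 and 104 FPKM. Of 16 fibroblast markers tested, 8 were higher and 1, Thy1, was lower, and the 20 genes of the list summed to 103 FPKM in the 48 h and 250.6 FPKM in the 96 h -dox cells. The same sum was 96.9 and 87.6 FPKM at 48 and 96 h before re-seeding. The 8 higher members were Col1a1, Col1a2, Col3a1, Col5a2, Col6a1, the matrix protein Postn (1.12 and 9.91 FPKM) and the PDGF receptors Pdgfra (0.285 and 2.27 FPKM) and Pdgfrb (0.419 and 7.37 FPKM). Thy1, a surface protein, was at 1.55 and 0.222 FPKM. The proteoglycan gene Dcn stayed within 2-fold, at 1.36 and 0.791 FPKM, Lum, Fbn1 and Col6a3 were below 1 FPKM in both conditions, and Dpt was listed at 0 in both. The part of feeder fibroblasts in the collagen values was not tested.

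Matrix proteases and their inhibitors were higher in 9 of 18 cases and lower in none (median 1.09), and integrins were higher in 5 of 14 (median 0.54). Mmp14 was at 11.4 and 42.6 FPKM, and Itgb3, an integrin chain, at 0.489 and 12.02 FPKM. Laminins (1 of 8 higher, 2 lower) and contractile genes (2 of 19 higher, none lower, median 0.02) were mostly within 2-fold. The background was 12.3% higher and 9.94% lower. Targets of YAP and TEAD were lower in 3 of 14 cases and higher in none, with Cyr61 at 116 and 52.9 FPKM.

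**Figure D3:**
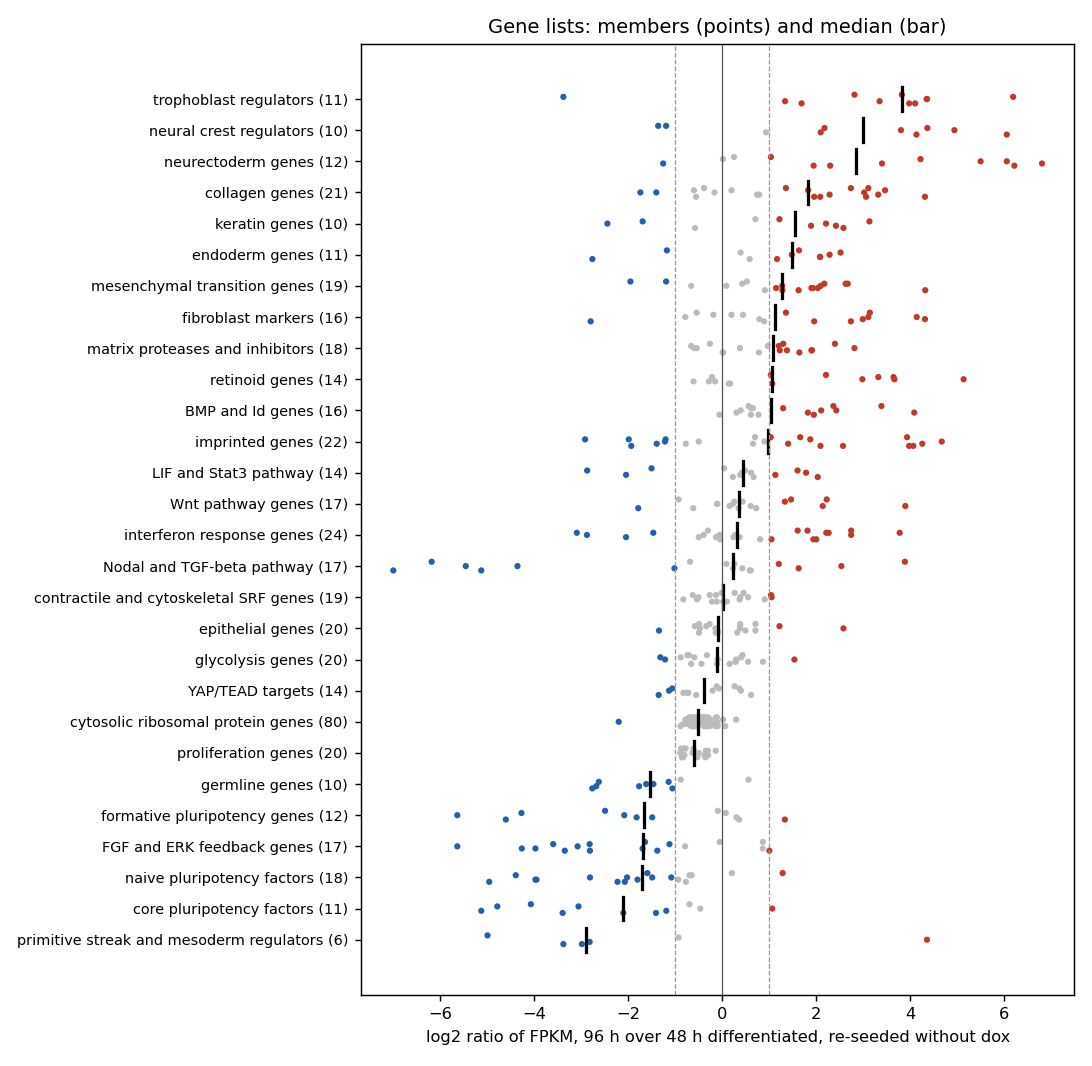
Log2 ratio of FPKM at 96 h over 48 h (x axis) for the members of 28 gene lists in cells re-seeded without dox, with 1 point per gene and the number of genes in parentheses. The black bar is the median, dashed lines mark 2-fold, and genes listed at 0 in either condition have no point. Medians ran from -2.90 for primitive streak regulators (6 genes, of which 3 had 1 FPKM in both conditions) to 3.82 for trophoblast regulators. The median over all tested genes was 0.0016.

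Markers of other lineages rose from low levels. Of 14 neurectoderm genes tested, 10 were higher and 2 were lower (median 2.85), but only 5 reached 10 FPKM. The neuronal tubulin Tubb3 was at 8.24 and 31.7 FPKM. Of 11 neural crest regulators, 8 were higher and 2 were lower (median 2.99), with Msx2, a BMP-responsive homeobox gene, at 1.21 and 24.9 FPKM and the others below 10 FPKM. With 1 FPKM added, the medians of these 2 lists were 1.57 and 1.397, and with 1 FPKM in both values they were 0.64 (6 genes) and 0.93 (3 genes). Of 11 endoderm genes, 7 were higher and 2 were lower (median 1.48, or 0.58 over the 5 that reached 10 FPKM). The regulators among them were low, with Sox17 at 1.19 and 6.84 FPKM and Gata6 at 0.798 and 3.37 FPKM, and Apoe, a lipid carrier, fell from 1108 to 163 FPKM.

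Markers of endothelium, blood and muscle gave no uniform picture. The background shares, 12.3% higher and 9.94% lower, apply to these small lists as well. Of 8 endothelial markers tested, 2 were higher and 3 were lower, and Pecam1 stood at 2.05 and 1.52 FPKM beside the rise of Cdh5. Only 3 blood markers were tested, of which Csf1r, the receptor of Csf1, rose from 0.284 to 5.83 FPKM. Of 6 muscle markers, 3 were higher, with Myl4, a myosin light chain, at 2.38 and 52.98 FPKM.

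Signaling genes of the medium were compared next, because serum/LIF supplies LIF and BMP-like activity. Of 16 genes of the BMP pathway, 8 were higher and none was lower, with a median log2 ratio of 1.03. The targets Id1 and Id3, which inhibit basic helix-loop-helix factors, were at 51.1 and 275 FPKM and at 30.6 and 321 FPKM. The ligands Bmp4 (4.48 and 19.3 FPKM) and Bmp2 (0.571 and 9.71 FPKM) rose as well. Of 14 LIF and Stat3 genes, 4 were higher and 3 were lower (median 0.45). The receptor chains Lifr (1.98 and 4.33 FPKM) and Il6st (11.7 and 35.5 FPKM) were among the higher, Stat3 and Socs3 stayed within 2-fold, and Pim1, a kinase gene that Stat3 induces, fell from 207 to 28.2 FPKM.

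Of 17 Wnt genes, 5 were higher and 1 was lower (median 0.35), with the inhibitor Dkk1 at 2.08 and 31.0 FPKM. Of 12 Notch genes, 4 were higher and 1, Notch3 (37.3 and 14.3 FPKM), was lower. Over all genes tested, 12.3% were higher and 9.94% lower. Of 14 retinoid genes, 8 were higher and none was lower (median 1.05), and the binding proteins Crabp1 (3.61 and 45.8 FPKM) and Crabp2 (7.10 and 71.0 FPKM) rose. Over the 11 retinoid genes with 1 FPKM in both values the median was 0.17, and with 1 FPKM added it was 0.69.

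Cell cycle, stress and metabolic genes moved less. Over all genes tested, 12.3% were higher and 9.94% lower, and the p53 list lay near those shares. Of 20 G1 regulators, 4 were higher and 2, Ccnd1 (28.5 and 3.71 FPKM) and Cdk6 (23.4 and 5.39 FPKM), were lower. Of 21 p53 targets, 2 were higher and 2 were lower, and Cdkn1a was at 64.4 and 55.3 FPKM. Of 14 AP-1 and immediate early genes, 3 were higher and 2 were lower, with Fos at 8.70 and 27.7 FPKM. Glycolysis genes were higher in 1 of 20 cases and lower in 2, and cholesterol synthesis genes were lower in 2 of 20. The glucose transporter Slc2a3 was the most abundant of the 5 changed genes of both lists, at 1088 and 437 FPKM.

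Interferon genes split. Of 24 tested, 10 were higher and 4 were lower, with a median log2 ratio of 0.32, which turned to -0.043 over the 17 with 1 FPKM in both values. Isg15, a ubiquitin-like modifier, was at 5.90 and 20.8 FPKM, and B2m, the light chain of MHC class I, at 193 and 399 FPKM. The immunoproteasome genes Psmb8 (5.29 and 0.718 FPKM) and Psmb9 (12.6 and 1.48 FPKM) and the factor Irf1 (43.3 and 10.5 FPKM) fell. Of 14 chemokines and inflammatory factors, 9 were higher and 2 were lower (median 1.27), with Cxcl12 at 1.58 and 19.9 FPKM.

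To see how far these differences were already present before re-seeding, the same contrast was taken in the time course, from other libraries. There, 15.1% of 12970 genes tested were at least 2-fold higher at 96 h and 11% were at least 2-fold lower. Of the 1588 genes higher after re-seeding without dox, 535, or 33.7%, were also higher before re-seeding, which is 27.3% of the 1962 genes higher there, and 81, or 5.10%, were lower. Of the 1283 genes lower after re-seeding, 366, or 28.5%, were also lower before, and 168, or 13.1%, were higher. Lefty1 and Nanog were in the last group. Lefty1 was at 9.56 and 49.4 FPKM at 48 and 96 h before re-seeding, and Nanog at 6.45 and 14.5 FPKM. Both were therefore higher at 96 h before re-seeding and lower at 96 h after it. Pou5f1 fell in both, from 205 to 25.5 FPKM before re-seeding.

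In cells re-seeded with dox, in which OSKM is induced, 10.4% of 12736 genes were at least 2-fold higher at 96 h and 11.5% at least 2-fold lower. Of the 1588 genes higher without dox, 635, or 40.0%, were also higher with dox, and 53, or 3.34%, were lower. Of the 1283 lower genes, 660, or 51.4%, were also lower with dox, which is 44.9% of the 1470 genes lower there, and 21, or 1.64%, were higher. Pou5f1 was at 204 and 9.95 FPKM in the +dox cells and Nanog at 48.6 and 8.63 FPKM, so both fell between 48 and 96 h in either medium. H19 was at 161 and 2214 FPKM and Krt7 at 4.23 and 65.9 FPKM with dox, rises in the same direction that ended at lower levels than without dox. The FPKM values of Hand1 and Steap4 at 96 h were 1.76 and 0.211 with dox, against 38.2 and 15.2 without.

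**Figure D4:**
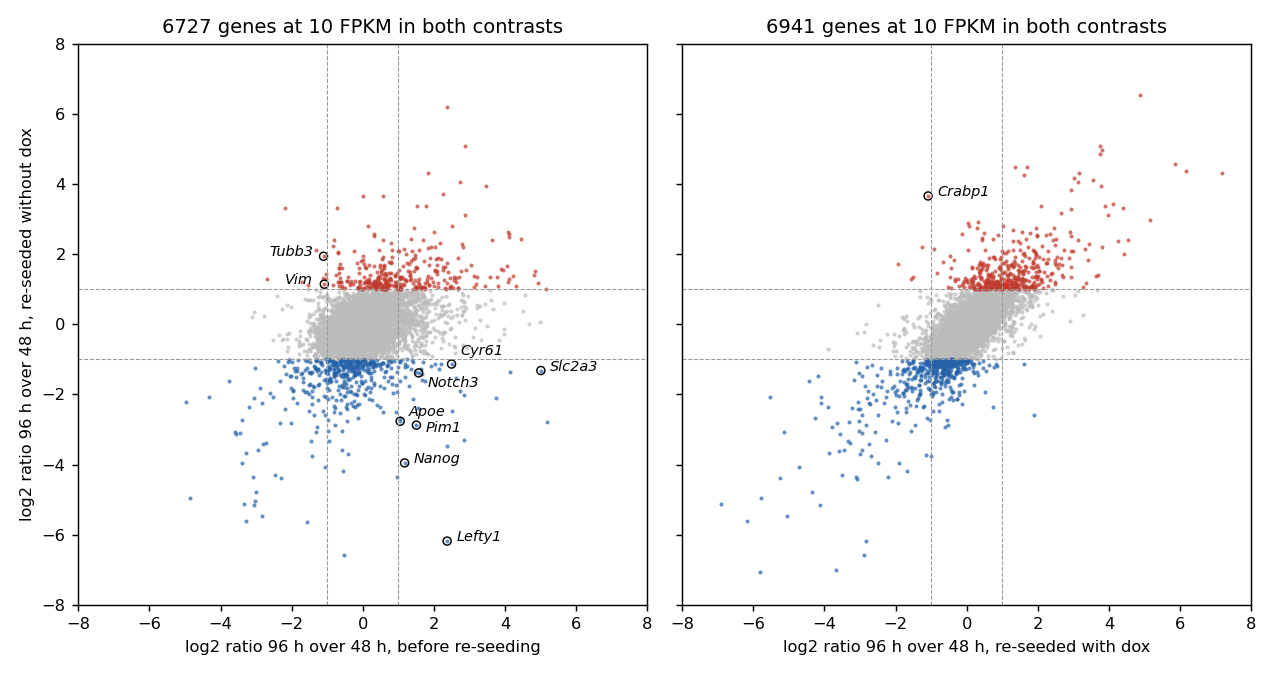
Log2 ratio of FPKM at 96 h over 48 h without dox (y axis) against the same ratio before re-seeding (left, 6727 genes) and with dox (right, 6941 genes), for genes that reached 10 FPKM in both contrasts. Red and blue points are genes at least 2-fold higher or lower without dox, dashed lines mark 2-fold, and circles mark named genes that were 2-fold apart in opposite directions. Lefty1 and Nanog lie at the lower right of the left panel, and Crabp1 is the circled gene in the right panel.

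Over all 15 conditions, 67.3% of the 1588 higher genes had their highest value in the 96 h -dox cells, against 19.9% of all genes tested. The choice of these genes favors this condition, so the share is a description. Of the 1283 lower genes, 14.3% had their highest value in the 48 h -dox cells, against 4.86% of all genes tested. Another 12.1% had it in cells re-seeded without dox from 0 h, against 6.64%. By their choice the lower genes cannot peak in the 96 h -dox cells, so these shares are descriptions too. Of genes that reached 10 FPKM, 613, or 8.2%, were higher and 497, or 6.65%, were lower. The median level of the 613 higher genes was 6.01, 6.53, 8.403 and 26.6 FPKM in cells re-seeded without dox after 0, 24, 48 and 96 h, and that of the 497 lower genes was 31.8, 35.3, 32.1 and 10.5 FPKM. Both sets were chosen for a 2-fold difference between the 48 and 96 h values, so the step between these 2 medians is fixed by the choice.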

How the data were processed

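RNA-seq of polyadenylated RNA was analysed from the table that the authors deposited. Per the paper's methods and the submitters' notes, the authors mapped reads to mm10 with TopHat2 2.0.14, quantified Gencode transcripts with Cufflinks 2.2.1 and merged the 2 replicates of a condition in Cuffdiff. The deposited values are FPKM, 1 per gene and condition. The library normalization is not given in the sources used here. The table also holds 5 columns of the authors' own calls, which were not used.

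Genes with at least 1 FPKM in either condition were compared by plain ratios, with a 2-fold limit and no pseudocount. A gene below 1 FPKM in 1 condition was tested only through the other, so the direction of its change was fixed by this limit. Genes listed at 0 have no ratio and are left out of medians. The computation of the calls, and not their replicate error, was tested on simulated data. Without replicate values, no test, SD or leave-one-out fit was possible, and the depth behind each value is unknown. The members and the 42 gene lists were chosen with earlier results of these data known. Named genes are the reprogramming factors and Nanog, list members, the 20 largest and 20 smallest ratios among genes that reached 10 FPKM, genes that reached 10 FPKM and were listed at 0 in the other condition, and the 10 largest rises and falls in FPKM. Some genes that this rule takes are not reported here. Positions are from Gencode M21 on mm10, which held 94.9% of the symbols, and 27 symbols had been turned into dates by a spreadsheet. Alternatives changed the minimum, the fold, the pseudocount and the scaling. Python 3.11.15, numpy, pandas and matplotlib were used.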

Additional observations from a re-analysis of the deposited data

Results flagged for a closer look

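Among genes named by rule that reached 10 FPKM in both contrasts, 10 changed at least 2-fold between 48 and 96 h in opposite directions in 2 settings. Each setting has 1 combined value per condition, so the differences between settings were not tested.

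Compared with the cells before re-seeding, 7 genes were lower at 96 h after re-seeding without dox and higher before it. The log2 ratio of 96 h over 48 h was -3.95 without dox and 1.17 before re-seeding for Nanog, and -6.18 and 2.37 for Lefty1. It was -2.76 and 1.05 for Apoe, and -2.87 and 1.51 for Pim1, a Stat3 target. Cyr61, a matricellular YAP target, had -1.13 and 2.49, Notch3 had -1.38 and 1.57, and the glucose transporter Slc2a3 had -1.32 and 5.00. For Slc2a3 the levels were 27.7 and 890 FPKM before re-seeding and 1088 and 437 FPKM after it.

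The reverse held for 2 cytoskeletal genes. Tubb3 had a log2 ratio of 1.95 without dox and -1.11 before re-seeding, and Vim had 1.15 and -1.08. Compared with the +dox cells, Crabp1, a retinoic acid-binding protein, had 3.66 without dox and -1.09 with dox, at 16.5 and 7.79 FPKM in the +dox cells.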

How the results depend on the processing

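No paired analysis was possible because the table combines both replicates of a condition, and for the same reason no replicate could be left out. With no replicates in the table, small ratios of low genes cannot be told from noise. The 1588 higher and 1283 lower genes became 3816 and 3225 with no minimum, 613 and 497 with a minimum of 10 FPKM in the higher value, 954 and 765 with 1 FPKM in both values, 2824 and 2511 at 1.5-fold, and 620 and 423 at 4-fold. With 1 FPKM added the higher genes numbered 1094 and the lower genes 834. With 0.1 FPKM added, median-ratio scaling or the X chromosome left out (an alternative chosen after seeing the data), both counts stayed within 1.5 times.

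Of the 41 lists with a median, 19 had one of at least 1 in size, and 11 with 1 FPKM in both values. The sign of the median turned for 8 of the 41 lists in at least 1 alternative. With a minimum of 10 FPKM it was 4.36 (1 gene) for the primitive streak list, -0.056 for interferon, -0.040 (1 gene) for blood, -0.68 for Nodal and TGF-beta, -1.12 (2 genes) for Notch, 0.24 for laminins and 2.17 (2 genes) for endothelium. With 1 FPKM in both values it was -0.043 for interferon, -0.040 (1 gene) for blood, -0.45 for Notch and -0.012 for G1 regulators. That alternative also brought the formative list to -0.093, retinoid genes to 0.17, neurectoderm to 0.64, neural crest to 0.93 (3 genes) and the primitive streak list to -0.93 (3 genes). The cause was not tested.

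The share of higher genes that were also higher before re-seeding, 33.7%, was 24.1% with a minimum of 10 FPKM, 27.4% with 1 FPKM in both values, 27.2% with 1 FPKM added, 41.7% at 1.5-fold and 45.5% among genes at 10 FPKM in both contrasts (chosen after seeing the data). For lower genes, 28.5% became 23.5%, 24.3%, 25.7% and 34.6% in the first 4 of these. With dox, 40.0% of higher genes became 37.3% with 1 FPKM added, 49.3% at 1.5-fold and 58.0% at 10 FPKM in both contrasts, and 51.4% of lower genes became 39.0% with a minimum of 10 FPKM, 39.7% with 1 FPKM in both values and 43.1% at 10 FPKM in both contrasts.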

Other observations

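Some gene families that no list held were looked up after the values had been seen. All 7 tested genes of the Serpinb9 family of protease inhibitors, which lie together on chromosome 13, were at least 2-fold higher in the 96 h -dox cells, where each had its highest value of the 15 conditions. Serpinb9b was at 5.78 and 27.3 FPKM and Serpinb9e at 0.585 and 28.3 FPKM. These genes are close copies, so the split of reads among them is uncertain. Of 17 prolactin-family hormone genes in the table, 4 reached 1 FPKM, and all 4 were higher at 96 h. Prl2a1 was at 0.712 and 6.97 FPKM, Prl2c5 at 0.326 and 6.07 FPKM and Prl7d1 at 0.0886 and 5.51 FPKM, while Prl4a1 was listed at 0 and at 2.07 FPKM. All 4 were below 1 FPKM at 48 h and passed the limit of 1 FPKM only through their 96 h values. The direction of their change was therefore fixed by that limit. Over all genes tested, 12.3% were higher. These hormones are made by the placenta. All 5 tested Iroquois homeobox genes were higher, Irx2 with 1.79 and 29.1 FPKM, and so was the placental homeobox gene Dlx3, with 2.04 and 29.4 FPKM. Irx3 and Irx4, at 0.464 and 0.251 FPKM, and Serpinb9e and Serpinb9g were likewise below 1 FPKM at 48 h, so their direction was fixed too. Only 6 of the 7 Serpinb9 genes were above 0 in both conditions. At 48 h the Serpinb9 genes summed to 11.5 FPKM and the Iroquois genes to 3.56 FPKM, so further members may have been below 1 FPKM. The counts of higher genes in these families are therefore descriptions. Of 5 tested Rhox genes, 3 were higher, but Rhox5, the most abundant at 48 h, was at 89.2 and 157 FPKM. Other genes seen in the same way were Nrk, an X-linked kinase of the placenta (4.74 and 111 FPKM), the gap junction gene Gjb5 (3.25 and 42.5 FPKM), and Sct, the hormone secretin (13.0 and 292 FPKM).

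The X chromosome held the highest share of higher genes. Of its 446 genes tested, 17.7% were at least 2-fold higher at 96 h and 12.3% at least 2-fold lower. Among genes that reached 10 FPKM, 41 of 251 X-linked genes, or 16.3%, were higher, and the shares of the autosomes ran from 3.67% on chromosome 17 to 11.1% on chromosome 12. Its share of lower genes was also the highest at this limit, with 23 of 251, or 9.16%. The autosomes ran from 3.06% on chromosome 9 to 9.02% on chromosome 14. Over all genes tested, chromosomes 7 (12.5%), 15 (12.5%) and 17 (12.6%) had larger shares of lower genes than the X chromosome. Of the 20 genes with the largest ratios, Ldoc1, Gm9112, Plac1, Rhox6, Rhox9, 1600025M17Rik, Nxf7 and C430049B03Rik are X-linked.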
